A study of Danio rerio with 16 samples.

Results

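Whether the response of zebrafish embryos to dioxin depended on slincR was measured as a difference between 2 responses. The first was the log2 fold change of each gene between dioxin and vehicle in embryos injected with a morpholino against slincR, and the second was the same change in embryos injected with a control morpholino. The slincR response minus the control response, called the response difference here, is the interaction term of the design. It was estimated for the 20630 of 32266 genes of the deposited count table that passed a filter on low counts, with all 16 libraries in 1 fit. A positive response difference means that the slope from vehicle to dioxin was more positive in slincR morphants, and a value of 1 is a 2-fold difference between the 2 fold changes.

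Embryos were of the Tropical 5D line and were collected whole at 48 h post fertilization (hpf). At about 6 hpf they were exposed for 1 h to the dioxin 2,3,7,8-tetrachlorodibenzo-p-dioxin (TCDD) at 1 ng/mL, or to its vehicle, dimethyl sulfoxide (DMSO) at 0.1%. The 4 groups were slincR morphants in TCDD, slincR morphants in DMSO, control morphants in TCDD and control morphants in DMSO. Each group had 4 libraries, labelled as biological replicates, and each library came from a pool of 20 embryos. Every embryo carried a morpholino, and no group was left uninjected. The labels do not say whether pools came from separate spawnings, so p-values measure the spread between these pools.

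TCDD binds the aryl hydrocarbon receptor (AHR), a ligand-activated transcription factor that pairs with ARNT and switches on genes of foreign-compound metabolism, above all the cyp1 monooxygenases. In zebrafish embryos the receptor ahr2 carries most of the toxicity, which includes malformed jaw cartilage, and repression of the cartilage regulator sox9b is a known part of it. The long noncoding RNA slincR lies next to sox9b and is itself induced through the AHR. Morpholinos are antisense oligomers that interfere with translation or splicing of an RNA, and can leave its count as it was. The tables used here pair no identifier of the count table with slincR, so no count is given under its name and the extent of the knockdown was not measured.

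Library totals over genes ran from 14977267 to 23142081 counts. The libraries are named by morphant, treatment and replicate number. Replicate 4 of the control morphants in DMSO stood apart: its first principal component score was 63.4, and scores of the other 15 ran from −19.4 to 17.7. In it 1111 genes were lower than the mean of the rest by 2-fold or more, and in each other library 215 to 331 genes were. The share of reads that fell in no gene averaged 14.3 ± 1.02% in slincR morphants in TCDD, 13.7 ± 1.01% in slincR morphants in DMSO, 15.3 ± 1.26% in control morphants in TCDD and 14.1 ± 0.946% in control morphants in DMSO (SD, n = 4 each). With TCDD it was thus 0.599 percentage points higher in slincR morphants and 1.14 points higher in control morphants, and a fit that takes this share as a covariate is given in the closing section. Markers of whole-embryo tissues were present, for example 38 of 39 skeletal muscle genes, 34 of 34 neuronal genes and 33 of 42 lens genes that the table holds, while 5 of 12 exocrine pancreas genes passed the filter.

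No gene had a response difference past the test. The count was 0 of 20630 genes, a share of 0%, by edgeR's quasi-likelihood test at a Benjamini-Hochberg adjusted p under 0.05, and the lowest adjusted p was 0.999995. DESeq2 and limma-voom also called 0 genes. At an unadjusted p under 0.05 there were 617 genes (2.99% of those tested), 295 with a positive and 322 with a negative response difference. Without the control DMSO library that stood apart the counts were 0 called and 629 at an unadjusted p under 0.05.

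The response differences themselves were mostly small. Their median over all tested genes was −0.0048, the quartiles were −0.15 and 0.13, and 89.4% of genes were within 0.5 of 0 on the log2 scale. At least 2-fold differences between the responses were estimated for 484 genes (2.35%), of which 2 had a mean of 10 CPM (counts scaled to an equal library total) or more, although 11006 genes reached that level. Precision set how much could be seen. The 95% interval reached a median of 0.34 to either side of the estimate for genes at 10 CPM or more, 0.68 for the 7688 genes between 1 and 10 CPM and 1.49 for the 1936 genes below 1 CPM. It lay wholly within a 2-fold difference in either direction for 15407 genes (74.7%), and for the others a 2-fold difference of response was not bounded away at this depth. RNA came from whole embryos, so fewer cells of a type and less RNA per cell cannot be told apart in any value given here.

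**Figure D1:**
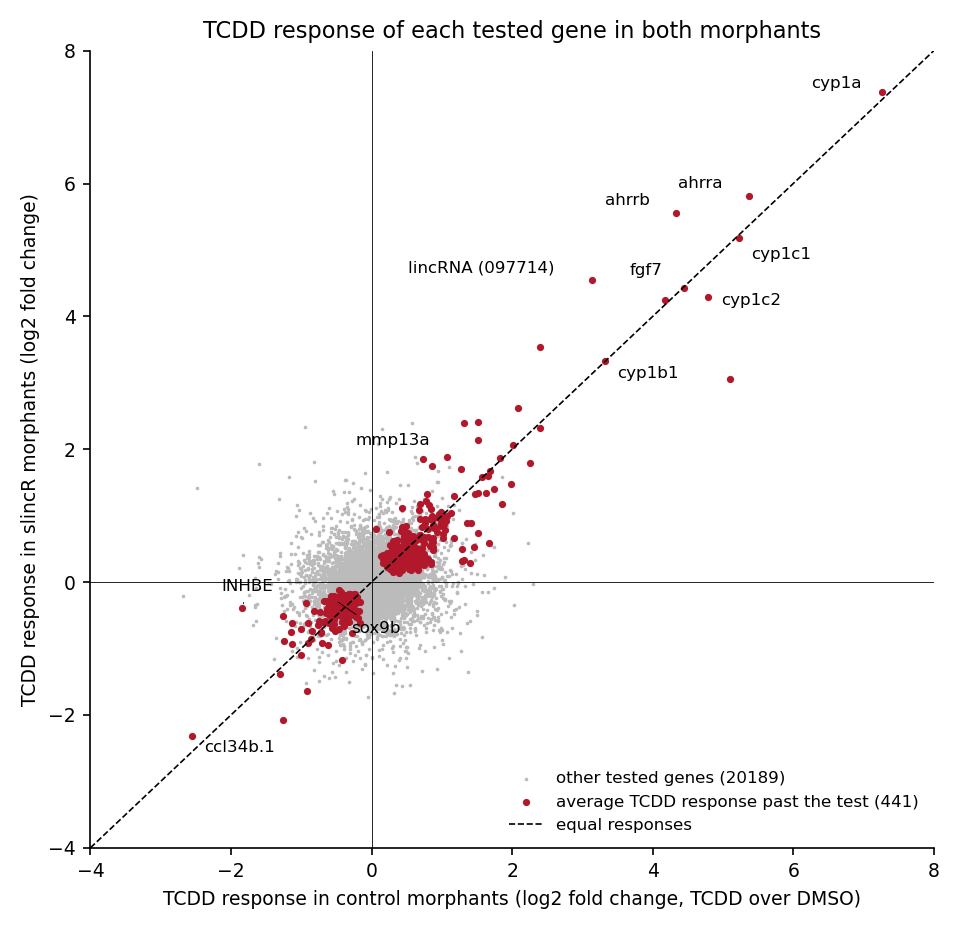
TCDD response (log2 fold change, TCDD over DMSO) of each tested gene in slincR morphants on the vertical axis and in control morphants on the horizontal axis. Red points are the 441 genes whose average response passed the test, grey points the other tested genes, and the dashed line marks equal responses. The induced cyp1 genes lie near that line at the upper right, cyp1a at 7.38 in slincR morphants and 7.27 in control morphants.

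To describe the genes that respond to TCDD without choosing them in 1 morphant, genes were taken by their average response, the mean of the slincR and control log2 fold changes. It passed the test in 441 genes (2.14% of those tested), of which 275 were higher with TCDD (1.33%) and 166 lower (0.805%). All 441 had the same sign in both morphants, a property that choosing on the average favours. The 95% interval of the response difference lay within a 2-fold difference for 384 of them, 232 higher and 152 lower with TCDD. An unadjusted p under 0.05 for the response difference was found in 21 of the 441 (4.76%), against 2.99% of all tested genes. With no true differences such a p is nominally expected in about a 0.05 share of genes. The share over all tested genes was below that, and 7 of them had an unadjusted p under 0.001. The p-values of this fit may thus be cautious, and the 4.76% cannot be held against the nominal share. Whether it exceeds the 2.99% was not tested. In 5 of these 21 the response was larger in slincR morphants and in 16 it was smaller. Over all tested genes, whatever their p, it was larger for 8906 and smaller for 11724. Most of these genes had no average response past the test. For them the split compares the sizes of 2 fold changes that may be spread alone. The same split was not counted over the 617 tested genes with such a p. The 5 and 16 thus have no matching background and are not read as a direction.

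Among the 441 genes the response was larger in slincR morphants for 180 and smaller for 261. The response difference in the direction of the response, negative where slincR morphants responded less, had a median of −0.055 over the 441 genes and −0.033 over all tested genes, where 8906 were larger and 11724 smaller. The genes higher with TCDD had a median response of 0.44 in slincR morphants and 0.53 in control morphants, and the genes lower with TCDD had −0.37 in slincR morphants and −0.40 in control morphants. The median of −0.055 moved by over 1.5 times with single libraries, each time with its own called genes. It was −0.0167 without slincR TCDD replicate 4, −0.0189 without slincR TCDD replicate 3, −0.0191 without slincR DMSO replicate 4, −0.0305 without slincR DMSO replicate 1, −0.0336 without control TCDD replicate 2 and −0.0341 without control DMSO replicate 4. It was −0.108 without control DMSO replicate 3. The mean signed level of the 441 genes had an SD of 0.0404 between libraries of a group, and no test of the median was made.

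For the 50 genes with an average response of at least 2-fold (42 higher, 8 lower), the larger responses were evenly divided, with 26 larger in slincR morphants and 24 smaller. The ratio of the slincR log2 response to the control log2 response had a median of 1.00, and its quartiles were 0.84 and 1.27. The lowest ratio was 0.21, for the inhibin subunit gene INHBE, and the highest was 2.54.

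The monooxygenases of the cyp1 family oxidise many aromatic compounds and are the standard readout of the AHR. For 3 of the 4 genes the estimated responses were nearly equal in both morphants. For cyp1a (ENSDARG00000098315) the libraries gave 1914, 1772, 1618 and 2095 CPM in TCDD-treated slincR morphants, against 12.8, 10.2, 11.6 and 9.96 CPM in DMSO-treated ones. They gave 1837, 1986, 2038 and 1937 CPM in TCDD-treated control morphants, against 9.99, 13.8, 14.2 and 12.7 CPM in DMSO-treated ones. The TCDD libraries of both morphants overlapped and were far above every DMSO library. The response was 7.38 ± 0.13 in slincR morphants and 7.27 ± 0.13 in control morphants (log2 fold change ± SE). The response difference was 0.11 ± 0.15 with a 95% interval of −0.20 to 0.42. The 2 SEs of 0.13 imply a somewhat larger SE than 0.15, so this interval is approximate and may be too narrow. The adjusted p of the average response was 7.0e-26.

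For cyp1c1 the libraries gave 544, 461, 438 and 405 CPM in TCDD-treated slincR morphants, against 10.2, 13.5, 14.2 and 12.8 CPM in DMSO-treated ones, and 489.7, 477, 513 and 568 CPM in TCDD-treated control morphants, against 13.1, 13.9, 13.4 and 14.3 CPM in DMSO-treated ones. The TCDD libraries of the 2 morphants overlapped and were clear of all DMSO libraries. Its response was 5.18 in slincR morphants and 5.22 in control morphants, a response difference of −0.04 ± 0.15 (95% interval −0.34 to 0.26). The gene cyp1b1, whose enzyme also acts on steroids and retinoids, gave 101, 88.1, 89.3 and 102 CPM in TCDD-treated slincR morphants, against 11.7, 11.4, 7.65 and 7.34 CPM in DMSO-treated ones, and 103, 99.6, 88.1 and 111 CPM in TCDD-treated control morphants, against 11.1, 9.65, 10.3 and 9.26 CPM in DMSO-treated ones. Both morphants overlapped in TCDD and in DMSO, and the responses were 3.32 in slincR morphants and 3.32 in control morphants. The response difference was 0.00 ± 0.17 (95% interval −0.36 to 0.36).

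The fourth family member, cyp1c2, was the only cyp1 gene with an interval that left out 0. It measured 102, 73.2, 76.8 and 103 CPM in TCDD-treated slincR morphants, against 4.11, 4.40, 6.13 and 3.56 CPM in DMSO-treated ones. The control libraries gave 122, 108, 114 and 97.0 CPM with TCDD, against 3.85, 4.05, 3.95 and 4.05 CPM with DMSO. Of the 4 slincR TCDD libraries 2 were below every control TCDD library and the other 2 lay within the control range, while the DMSO libraries of the 2 morphants overlapped. The response was 4.29 ± 0.15 in slincR morphants and 4.79 ± 0.15 in control morphants, or 19.6-fold in slincR morphants and 27.7-fold in control morphants, and the response difference was −0.50 ± 0.21 with a 95% interval of −0.93 to −0.07. This difference did not pass the test over all genes, and the interval reached from a nearly equal response to a nearly 2-fold smaller one.

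The AHR repressors, which compete with the receptor for ARNT and damp its activity, were close to undetected in DMSO. For ahrra the libraries gave 8.58, 8.11, 8.28 and 11.2 CPM in TCDD-treated slincR morphants, against 0.119, 0.198, 0.271 and 0.0445 CPM in DMSO-treated ones. They gave 13.3, 7.67, 14.9 and 10.8 CPM in TCDD-treated control morphants, against 0.279, 0.205, 0.461 and 0.182 CPM in DMSO-treated ones. The TCDD libraries of both morphants overlapped, and so did the DMSO libraries, and the response difference was 0.45 ± 0.57 (95% interval −0.74 to 1.63). For ahrrb they gave 10.2, 4.97, 6.00 and 6.78 CPM in TCDD-treated slincR morphants, against 0.238, 0.247, 0.0543 and 0.0445 CPM in DMSO-treated ones, and 6.89, 6.74, 5.65 and 8.17 CPM in TCDD-treated control morphants, against 0.502, 0.205, 0.592 and 0.0605 CPM in DMSO-treated ones. The TCDD ranges overlapped here as well, and the response of 5.55 in slincR morphants and 4.33 in control morphants differed by 1.22 ± 0.67 (95% interval −0.17 to 2.61). That estimate rests on 11 reads in all in slincR morphants in DMSO, against 23 in control morphants in DMSO, and it depends on how such low counts are fitted. The SEs of the 2 ahrrb responses were 0.42 and 0.37. They imply a smaller SE than 0.67, so the interval is approximate and may be too wide. Whether it should hold 0 is therefore not settled. The increase in level was 6.84 CPM in slincR morphants and 6.52 CPM in control morphants.

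**Figure D2:**
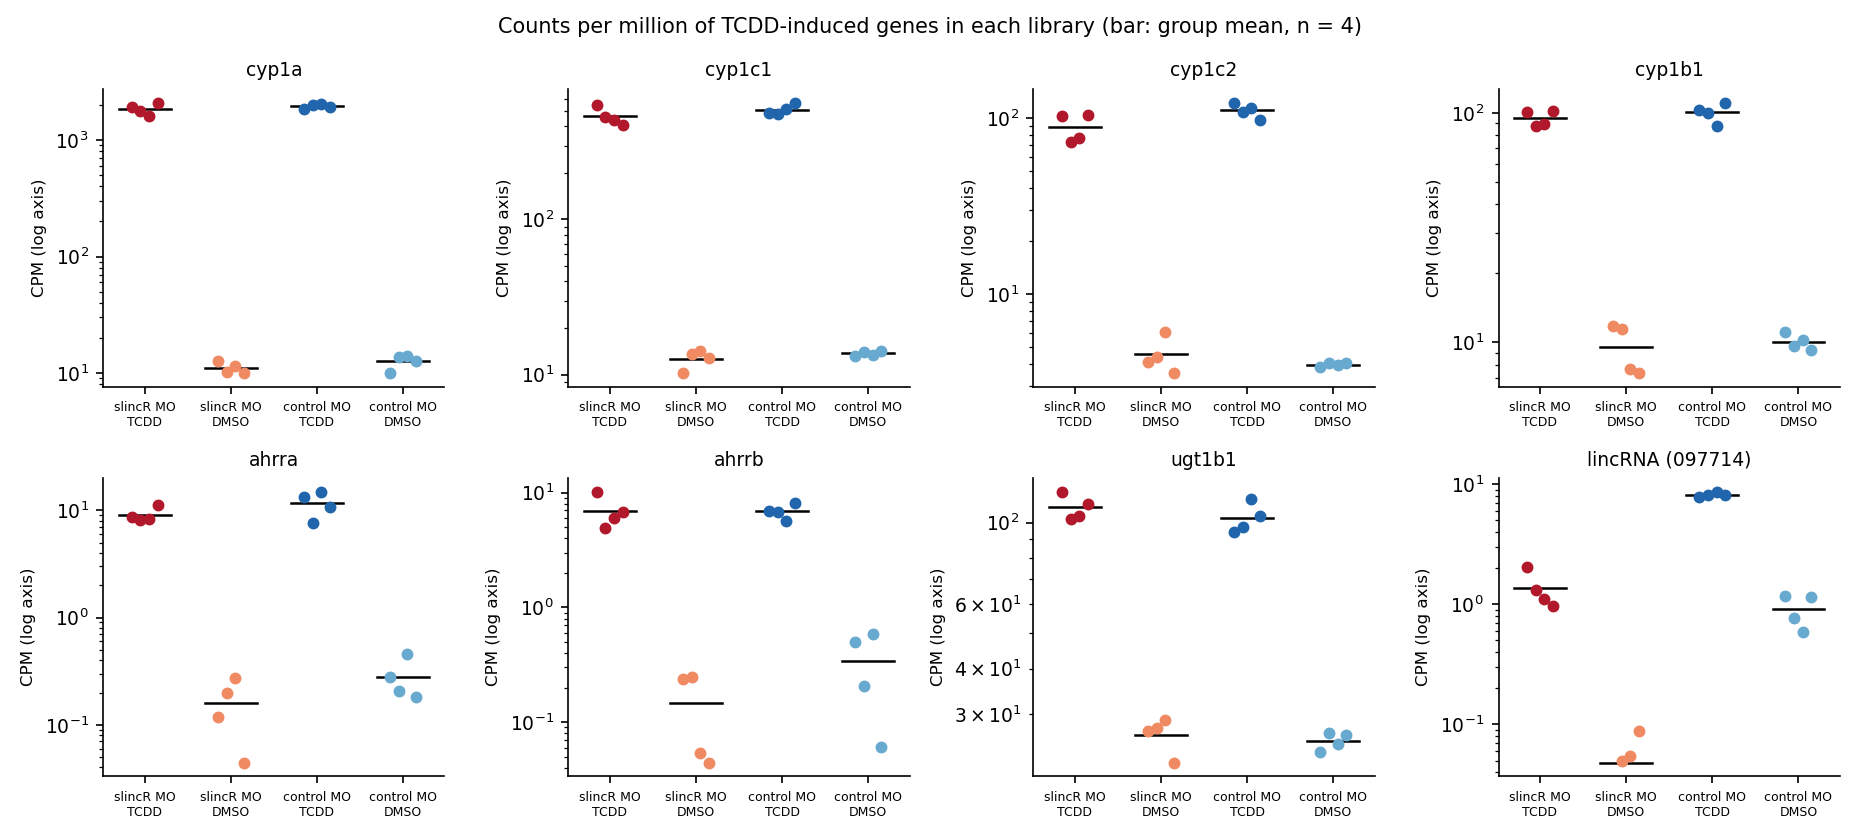
CPM in each of the 16 libraries, on a log axis, for 8 genes induced by TCDD, with slincR morphants left of control morphants and TCDD left of DMSO. Points are libraries and bars are group means; 1 slincR DMSO library with 0 reads of the lincRNA cannot be shown on this axis. For cyp1a the TCDD libraries lie between 1618 and 2095 CPM in both morphants, and the lincRNA is lower in slincR morphants under both treatments.

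The receptor gene and a gene of conjugation also had nearly equal estimated responses. The receptor gene ahr2 gave 267, 264, 261 and 252 CPM in TCDD-treated slincR morphants, against 125, 128, 133 and 149 CPM in DMSO-treated ones. In the control groups it was 247, 262, 218 and 253 CPM with TCDD, against 136, 119, 129 and 122 CPM with DMSO. Every TCDD library was above every DMSO library, with overlap between morphants, and the response was 0.96 in slincR morphants and 0.96 in control morphants. The response difference of ahr2 was 0.01 ± 0.11, and its 95% interval of −0.22 to 0.24 is among the narrowest of the genes named here. The glucuronosyltransferase gene ugt1b1 measured 121, 102, 104 and 112 CPM in TCDD-treated slincR morphants, against 27.11, 27.5, 28.9 and 22.2 CPM in DMSO-treated ones, and 94.3, 97.3, 116 and 104 CPM in TCDD-treated control morphants, against 23.8, 26.6, 24.9 and 26.3 CPM in DMSO-treated ones. Its libraries overlapped between morphants within each treatment, and the response difference was 0.04 ± 0.13 (95% interval −0.24 to 0.32). The response difference was −0.15 ± 0.16 for cyb5a, the cytochrome that passes electrons to monooxygenases, and 0.11 ± 0.15 for tiparp, an ADP-ribosyltransferase that feeds back on the AHR. For the receptor's partner arnt, whose average response did not pass the test, it was −0.47 ± 0.24, and −0.29 without the control DMSO library that stood apart, which held 8.35 CPM where the other control DMSO libraries held 14.1 to 18.1 CPM.

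Over the list of 16 tested AHR battery genes, 13 were higher with TCDD on average and 0 were lower. Of these 16, 8 had a positive and 8 a negative response difference, 0 passed the test, and the median was −0.0035, against −0.0048 over all tested genes. The split depended on single libraries, with 4 positive and 12 negative and a median of −0.0549 without slincR TCDD replicate 1, and 9 positive and 7 negative and a median of 0.0444 without slincR TCDD replicate 2. The sign of the battery's median was the other one under 6 of 25 alternatives. The 8 tested receptors and partners had a median of 0.02, with 5 positive and 3 negative. Without the control DMSO library that stood apart their median was −0.0421, with 3 positive and 5 negative.

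A long intergenic noncoding RNA (lincRNA) without a gene name beyond a clone number (ENSDARG00000097714) was induced in both morphants but stood at different levels in them. It counted 32, 27, 20 and 19 reads in slincR morphants in TCDD, against 0, 1, 1 and 2 reads in slincR morphants in DMSO. It counted 120, 157, 153 and 148 reads in control morphants in TCDD, against 21, 15, 9 and 19 reads in control morphants in DMSO. TCDD libraries were above DMSO libraries in both morphants, and every slincR library was below every control library of the same treatment. No source used here ties this lincRNA to slincR by an identifier. Whether it is slincR itself, or another RNA that the slincR morpholino acts on, was not tested. The log2 response was 4.54 ± 0.48 in slincR morphants and 3.13 ± 0.27 in control morphants, a response difference of 1.41 ± 0.62 (95% interval 0.14 to 2.68), which did not pass the test. That larger fold rests on 4 reads in all in the slincR DMSO group, against 64 in the control DMSO group. In level the increase went the other way, 1.31 CPM in slincR morphants and 7.22 CPM in control morphants, so the sign of the comparison depends on whether a ratio or a difference of levels is taken. The fitted fold also depends on the prior count at such low reads.

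The cartilage regulator sox9b, the neighbour of slincR, was lower with TCDD in both morphants. It measured 79.9, 88.2, 85.1 and 85.5 CPM in TCDD-treated slincR morphants, against 109, 103, 89.2 and 106 CPM in DMSO-treated ones. Levels in control morphants were 62.9, 78.8, 72.4 and 68.4 CPM with TCDD, against 115, 89.0, 93.3 and 109 CPM with DMSO. No TCDD library reached the DMSO range in either morphant, and every slincR TCDD library was above every control TCDD library, while the DMSO libraries overlapped. The response was −0.27 ± 0.09 in slincR morphants and −0.52 ± 0.09 in control morphants, which is a level 0.832 times that of DMSO in slincR morphants and 0.696 times in control morphants. The response difference of sox9b was 0.26 ± 0.13 with a 95% interval of −0.02 to 0.53, and it was 0.22 without the control DMSO library that stood apart. It did not pass the test, so the decrease is not shown to be smaller in slincR morphants. The adjusted p was 0.001 for the average response, 0.0044 for control morphants and 0.40 for slincR morphants. In slincR morphants alone the decrease thus did not pass the test, and a call in 1 morphant is not a difference between the 2. The second sox9 gene, listed under the symbol SOX9 (ENSDARG00000003293), had no average response past the test and a response difference of −0.25 ± 0.22, which was −0.11 without that control DMSO library.

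Cartilage genes and targets of sox9 were about evenly divided. Of the 27 tested, 14 had a positive and 13 a negative response difference, 0 passed the test, and the median was 0.0059. It was −0.0259 without control TCDD replicate 3 and 0.0183 without slincR TCDD replicate 2. The 30 tested genes of matrix and remodelling, 14 positive and 16 negative, had a median of −0.0068, which was −0.0279 without slincR DMSO replicate 3 and 0.0244 without slincR DMSO replicate 1. The 14 bone genes, 9 positive and 5 negative, had a median of 0.07. It was 0.0345 without slincR TCDD replicate 4, 0.047 without control TCDD replicate 4 and 0.132 without control DMSO replicate 3. IFITM5, a membrane protein of bone-forming osteoblasts, fell with TCDD on average (adjusted p = 0.018). Its log2 response was −0.28 in slincR morphants and −0.64 in control morphants, a response difference of 0.36 ± 0.21.

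The genes notch3, adamts3, fabp2, sfrp2 and fgfr3 were listed with earlier results of these samples known, so their direction is not independent evidence. Of the 5, 4 had a negative response difference, 0 passed the test, and the median was −0.19. The Wnt modulator gene sfrp2 was the exception in sign and the only 1 with an average response past the test (adjusted p = 0.0022). It measured 72.3, 70.7, 66.5 and 78.2 CPM in TCDD-treated slincR morphants, against 68.2, 98.2, 92.8 and 112 CPM in DMSO-treated ones. Control embryos gave 44.0, 46.4, 45.0 and 53.4 CPM with TCDD, against 68.8, 81.6, 58.3 and 73.0 CPM with DMSO. The slincR treatment ranges overlapped and the control ranges did not, yet the responses were −0.37 in slincR morphants and −0.58 in control morphants, and the response difference of 0.21 ± 0.17 had a 95% interval of −0.14 to 0.56.

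For the receptor gene NOTCH3 the libraries gave 329, 327, 288 and 335 CPM in TCDD-treated slincR morphants, against 344, 313, 317 and 319.5 CPM in DMSO-treated ones. In control morphants they gave 265, 277, 293 and 261 CPM with TCDD, against 231, 275, 255 and 135 CPM with DMSO. Treatments overlapped in both morphants, and the lowest value was that of the control DMSO library that stood apart. The response difference of NOTCH3 was −0.31 ± 0.19, and −0.13 without that library. For FGFR3, a fibroblast growth factor receptor, it was −0.19 ± 0.17, and −0.04 without that library. For the procollagen protease gene ADAMTS3 it was −0.27 ± 0.16, and −0.25 without it. The intestinal fatty acid binding gene FABP2 gave −0.08 ± 0.16 (95% interval −0.42 to 0.25). Over the 5 genes the median was −0.11 without that library and −0.30 without control DMSO replicate 2, a change of over 1.5 times in both. The 25 tested genes of Notch signalling, 9 positive and 16 negative, had a median of −0.07, with 0 past the test. It was −0.04 without control TCDD replicate 3.

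The genes fgf7, wfikkn1 and foxq1a were induced in both morphants. The fibroblast growth factor gene fgf7 measured 14.6, 12.7, 15.8 and 15.0 CPM in TCDD-treated slincR morphants, against 0.536, 0.395, 0.977 and 0.756 CPM in DMSO-treated ones. Control morphants had 16.0, 16.5, 17.4 and 19.0 CPM with TCDD, against 0.446, 0.667, 1.38 and 0.726 CPM with DMSO. The TCDD libraries were above all DMSO libraries by a wide gap, those of slincR morphants all lay below those of control morphants, and the response was 4.43 in slincR morphants and 4.44 in control morphants. The response difference of −0.01 ± 0.47 had a 95% interval of −0.97 to 0.96, and DMSO levels were at most 1.38 CPM. The SEs of the 2 responses were 0.23 and 0.23. They imply a smaller SE than 0.47, so this interval is approximate and may be too wide. The gene wfikkn1, for a secreted protein that binds myostatin, had responses of 4.24 in slincR morphants and 4.17 in control morphants, and its response difference was 0.07 ± 0.48. The forkhead factor gene foxq1a had responses of 2.32 in slincR morphants and 2.39 in control morphants, and a response difference of −0.08 ± 0.20 that was −0.175 without the control DMSO library that stood apart. Its relative foxq1b passed the test on average (adjusted p = 0.014) but in neither morphant alone, with responses of 0.52 in slincR morphants and 0.72 in control morphants. The response difference of foxq1b was −0.21 ± 0.28, and −0.0555 without that library.

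The oxidative stress regulators nfe2l2a and nfe2l2b, the 2 zebrafish genes for Nrf2, had response differences of opposite sign, with intervals that held 0. The gene nfe2l2a measured 188, 209, 192 and 175 CPM in TCDD-treated slincR morphants, against 140.5, 121, 140.2 and 167 CPM in DMSO-treated ones. The control libraries gave 222, 249, 212 and 232 CPM with TCDD, against 152, 124, 154 and 168 CPM with DMSO. The TCDD libraries were above the DMSO libraries in both morphants, and every slincR TCDD library was below every control TCDD library. The response difference was −0.19 ± 0.14 for nfe2l2a (95% interval −0.48 to 0.10) and 0.44 ± 0.27 for nfe2l2b (95% interval −0.12 to 0.99). The Nrf2 target hmox1a, the heme oxygenase gene, measured 16.0, 23.7, 15.9 and 20.8 CPM in TCDD-treated slincR morphants, against 7.03, 10.4, 10.8 and 7.65 CPM in DMSO-treated ones, and 10.3, 11.9, 9.37 and 13.1 CPM in TCDD-treated control morphants, against 7.53, 7.13, 6.05 and 7.32 CPM in DMSO-treated ones. Its TCDD range in slincR morphants was above its TCDD range in control morphants, and the response difference was 0.42 ± 0.23 (95% interval −0.06 to 0.89). Of the 20 tested Nrf2 genes 10 had a positive and 10 a negative response difference, with a median of −0.01. That median ran from −0.0945 without control DMSO replicate 1 to 0.121 without control DMSO replicate 2, and had the other sign under 9 of 25 alternatives.

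For 2.99% of all tested genes, and 4.76% of the 441, the response difference had an unadjusted p under 0.05. Of the 50 genes with an average response of at least 2-fold, 7 had such a p. They were the lincRNA and cyp1c2 above, mmp13a, slco2a1, muc5.2, hnf4g and INHBE, and slco2a1, muc5.2 and hnf4g were named after their values were seen. The collagenase gene mmp13a measured 3.40, 3.77, 6.33 and 5.34 CPM in TCDD-treated slincR morphants, against 1.25, 1.63, 1.302 and 0.934 CPM in DMSO-treated ones. In the control groups it was 3.97, 4.68, 6.32 and 4.46 CPM with TCDD, against 2.57, 2.26, 1.65 and 2.72 CPM with DMSO. TCDD libraries of the 2 morphants overlapped, and the slincR DMSO range lay below all of the control DMSO libraries. The response was 1.88 ± 0.26 in slincR morphants and 1.08 ± 0.24 in control morphants, a response difference of 0.81 ± 0.35 (95% interval 0.08 to 1.53). For the gelatinase gene mmp9, also induced in both morphants, the sign was the other way, −0.27 ± 0.24 (95% interval −0.77 to 0.24).

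Smaller responses in slincR morphants were estimated for slco2a1, muc5.2 and hnf4g. The prostaglandin transporter gene slco2a1 measured 7.30, 8.94, 9.56 and 6.58 CPM in TCDD-treated slincR morphants, against 3.87, 4.20, 5.92 and 5.29 CPM in DMSO-treated ones. Levels in control morphants were 6.70, 8.65, 9.26 and 8.06 CPM with TCDD, against 2.57, 2.46, 2.76 and 3.63 CPM with DMSO. The TCDD ranges overlapped, and every slincR DMSO library was above every control DMSO library. The response was 0.75 ± 0.18 in slincR morphants and 1.52 ± 0.19 in control morphants, a response difference of −0.77 ± 0.26 (95% interval −1.31 to −0.24). The mucin gene muc5.2 measured 21.1, 22.9, 19.3 and 21.9 CPM in TCDD-treated slincR morphants, against 9.77, 10.1, 12.1 and 13.8 CPM in DMSO-treated ones, and 29.5, 23.7, 21.3 and 23.5 CPM in TCDD-treated control morphants, against 7.64, 11.8, 7.04 and 10.1 CPM in DMSO-treated ones. Its ranges overlapped between morphants under both treatments, and the response difference was −0.52 ± 0.21 (95% interval −0.96 to −0.08). The nuclear receptor gene hnf4g, at or below 2.37 CPM in every library, had a response difference of −1.08 ± 0.51 (95% interval −2.13 to −0.03).

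INHBE, which encodes a subunit of activins of the TGF-beta superfamily, had the lowest ratio of responses. It measured 0.961, 0.724, 0.833 and 0.77 CPM in TCDD-treated slincR morphants, against 0.774, 1.28, 1.19 and 1.02 CPM in DMSO-treated ones. Control embryos gave 0.52, 0.618, 0.169 and 0.381 CPM with TCDD, against 1.62, 1.54, 1.18 and 1.75 CPM with DMSO. The slincR treatment ranges overlapped, while every control TCDD library was below every control DMSO library. The response was −0.39 ± 0.35 in slincR morphants and −1.84 ± 0.37 in control morphants, a response difference of 1.45 ± 0.51 (95% interval 0.39 to 2.51). These INHBE values rest on low counts, 3 to 30 reads in a library. The other genes with the largest decreases had response differences with intervals that held 0. Among them were lyz, for the lysozyme of neutrophils and macrophages, at −0.02 ± 0.29, prl, for the pituitary hormone prolactin, at −0.09 ± 0.43, and the chemokine gene ccl34b.1 at 0.25 ± 0.78, which was 0.00131 without the control DMSO library that stood apart. The family members ponzr3 and ponzr4 had −0.71 ± 0.50 and −0.08 ± 0.38.

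**Figure D3:**
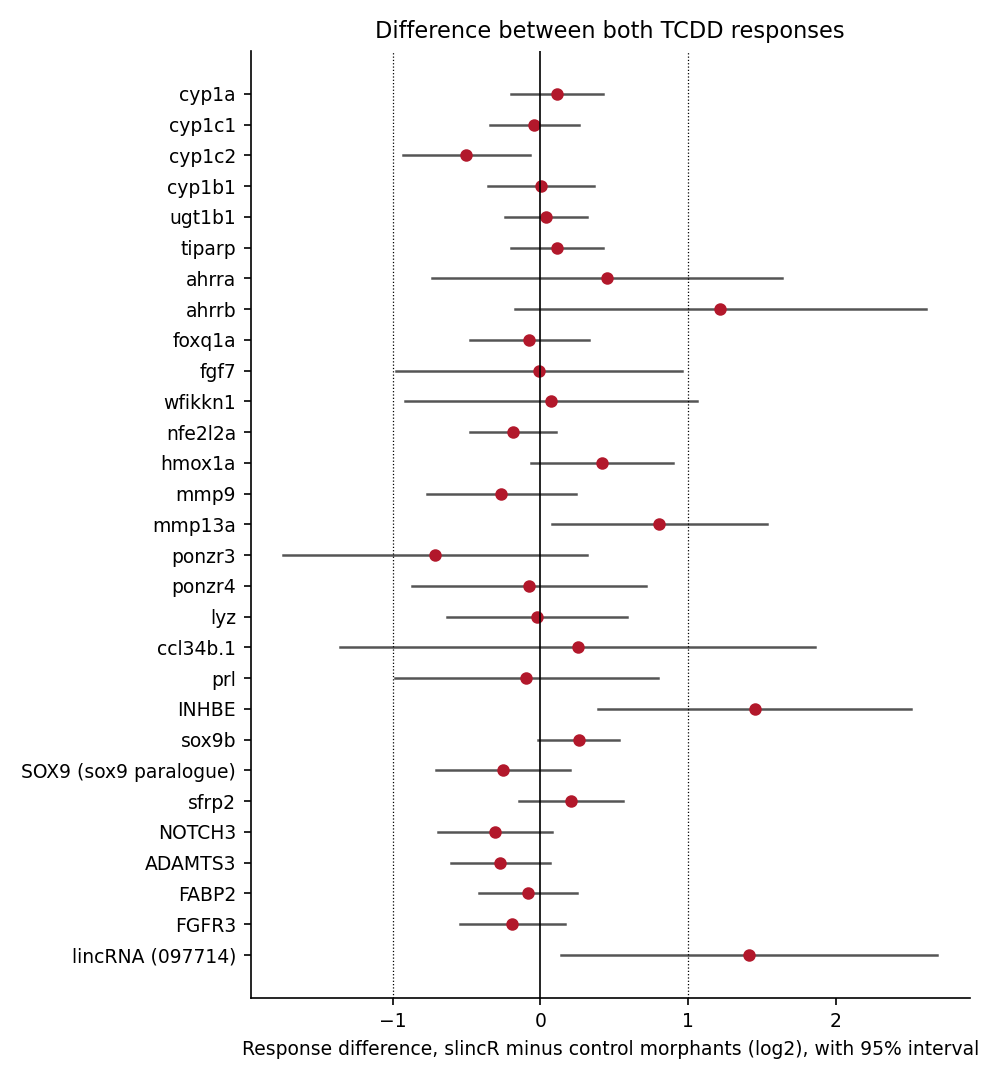
Response difference (slincR minus control morphants, log2) of named genes, as points with 95% intervals, grouped by role. The solid line marks equal responses and the dotted lines a 2-fold difference. The intervals of cyp1a and ugt1b1 lie close around 0, while those of the genes with few reads in DMSO, such as ahrrb and the lincRNA, are wide.

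Genes at the ends of the ranking by unadjusted p were, for the most part, not TCDD-responsive on average. The 10 named genes with a positive response difference were dap1b, ftr83, PSAT1, PIGW, SMPD3, lonrf1, PPEF2, ELOVL4, PARVA and SNRNP25. Those with a negative one were snphb, rbms2a, HEPH, pappab, pfkpb, JADE2, EGR3, FIBP, AMACR and btbd6a. None of the 20 passed the test, and an average response past the test was found for lonrf1 and pappab alone. Values of these genes are the ends of a ranking over 20630 genes and are given as a description.

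The gene dap1b, related to death-associated protein 1, measured 6.92, 7.05, 7.56 and 9.61 CPM in TCDD-treated slincR morphants, against 6.55, 8.10, 7.11 and 6.85 CPM in DMSO-treated ones. Control morphants had 6.11, 5.30, 5.70 and 6.37 CPM with TCDD, against 10.0, 10.8, 8.36 and 10.7 CPM with DMSO. The slincR ranges overlapped and the control TCDD range was below the control DMSO range. The response was 0.12 ± 0.15 in slincR morphants and −0.77 ± 0.15 in control morphants, a response difference of 0.89 ± 0.21 (95% interval 0.46 to 1.31). For ftr83, a member of the finTRIM family of fish, the libraries gave 31.8, 31.1, 35.8 and 38.0 CPM in TCDD-treated slincR morphants, against 32.3, 31.3, 29.5 and 24.5 CPM in DMSO-treated ones, and 25.6, 22.3, 24.8 and 24.99 CPM in TCDD-treated control morphants, against 31.6, 32.7, 28.4 and 30.9 CPM in DMSO-treated ones. Here too the slincR ranges overlapped and the control ranges did not, with a response difference of 0.56 ± 0.15. PSAT1, an aminotransferase of serine synthesis, measured 56.4, 65.1, 60.7 and 84.0 CPM in TCDD-treated slincR morphants, against 49.0, 49.4, 40.6 and 38.6 CPM in DMSO-treated ones, and 53.8, 48.3, 49.9 and 57.5 CPM in TCDD-treated control morphants, against 61.7, 41.6, 51.3 and 72.8 CPM in DMSO-treated ones. Its slincR ranges were apart, its control ranges overlapped, and the response difference was 0.70 ± 0.20 (95% interval 0.29 to 1.11).

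Of the other genes with a positive response difference, PIGW (a step in making GPI anchors) had 0.88 ± 0.26, the sphingomyelinase gene SMPD3 had 0.42 ± 0.12 and the phosphatase gene PPEF2 had 1.25 ± 0.38. ELOVL4, which lengthens very long fatty acids, had 0.47 ± 0.14, and PARVA, a protein of focal adhesions, had 0.68 ± 0.21. The gene lonrf1 had 0.73 ± 0.22, with responses of 0.81 in slincR morphants and 0.07 in control morphants and an average adjusted p of 0.03.

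The gene snphb, for a syntaphilin that anchors mitochondria in axons, measured 2.18, 1.79, 2.28 and 2.57 CPM in TCDD-treated slincR morphants, against 3.99, 2.32, 2.88 and 2.402 CPM in DMSO-treated ones. The control libraries gave 4.42, 4.94, 3.90 and 3.87 CPM with TCDD, against 2.06, 2.16, 2.76 and 1.88 CPM with DMSO. The slincR ranges overlapped and the control TCDD range was above the control DMSO range. The response was −0.39 ± 0.23 in slincR morphants and 0.95 ± 0.22 in control morphants, and its response difference of −1.34 ± 0.32 (95% interval −1.998 to −0.68) was −1.27 without the control DMSO library that stood apart. For rbms2a, an RNA-binding protein, the libraries gave 83.1, 81.7, 69.1 and 69.1 CPM in TCDD-treated slincR morphants, against 71.6, 82.8, 87.1 and 88.2 CPM in DMSO-treated ones, and 92.7, 97.4, 70.3 and 95.5 CPM in TCDD-treated control morphants, against 75.6, 62.0, 48.4 and 61.6 CPM in DMSO-treated ones. Both pairs of ranges overlapped, and the response difference was −0.65 ± 0.17.

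The gene pappab, for a protease that frees insulin-like growth factors from their binding proteins, was higher with TCDD on average (adjusted p = 0.0037). It measured 6.41, 10.1, 6.61 and 7.09 CPM in TCDD-treated slincR morphants, against 5.96, 7.61, 5.54 and 5.69 CPM in DMSO-treated ones. In the control groups it was 10.2, 8.03, 9.49 and 9.75 CPM with TCDD, against 4.63, 4.36, 3.55 and 1.45 CPM with DMSO. The slincR ranges overlapped, the control ranges did not, and the lowest value was that of the library that stood apart. The response was 0.29 ± 0.22 in slincR morphants and 1.41 ± 0.23 in control morphants, and the response difference of −1.12 ± 0.32 was −0.86 without that library. JADE2, a subunit of histone acetyltransferase complexes, had −1.19 ± 0.37, and −0.98 without that library. The glycolytic enzyme gene pfkpb had −0.65 ± 0.20, the ferroxidase gene HEPH had −0.74 ± 0.20, the immediate-early factor EGR3 had −0.84 ± 0.27 and the racemase gene AMACR had −1.08 ± 0.35.

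Only 4 genes (0.0194% of those tested) had TCDD and DMSO libraries that did not overlap in either morphant and that moved in opposite directions. SNRNP25, a protein of the minor spliceosome, was the 1 that was higher with TCDD in slincR morphants and lower in control morphants. It measured 17.0, 17.4, 17.7 and 17.3 CPM in TCDD-treated slincR morphants, against 13.9, 13.9, 14.5 and 15.8 CPM in DMSO-treated ones. Levels in control morphants were 14.7, 13.9, 14.3 and 13.3 CPM with TCDD, against 17.4, 15.2, 15.5 and 19.1 CPM with DMSO. All slincR TCDD libraries thus lay above the slincR DMSO range, and all control TCDD libraries below the control DMSO range, with a response difference of 0.51 ± 0.15 (95% interval 0.20 to 0.82). The opposite pattern was found in btbd6a, in RFX4 and in si:ch211-260p9.3. For btbd6a, a BTB domain gene, the response difference was −0.37 ± 0.11, for the transcription factor gene RFX4 it was −0.41 ± 0.13, and for si:ch211-260p9.3, below 1 CPM in every library, it was −2.24 ± 0.65. None of the 4 had an average response past the test, and these genes were picked for this pattern. A count this small can arise from a random order of the libraries, so the pattern is given as a description.

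**Figure D4:**
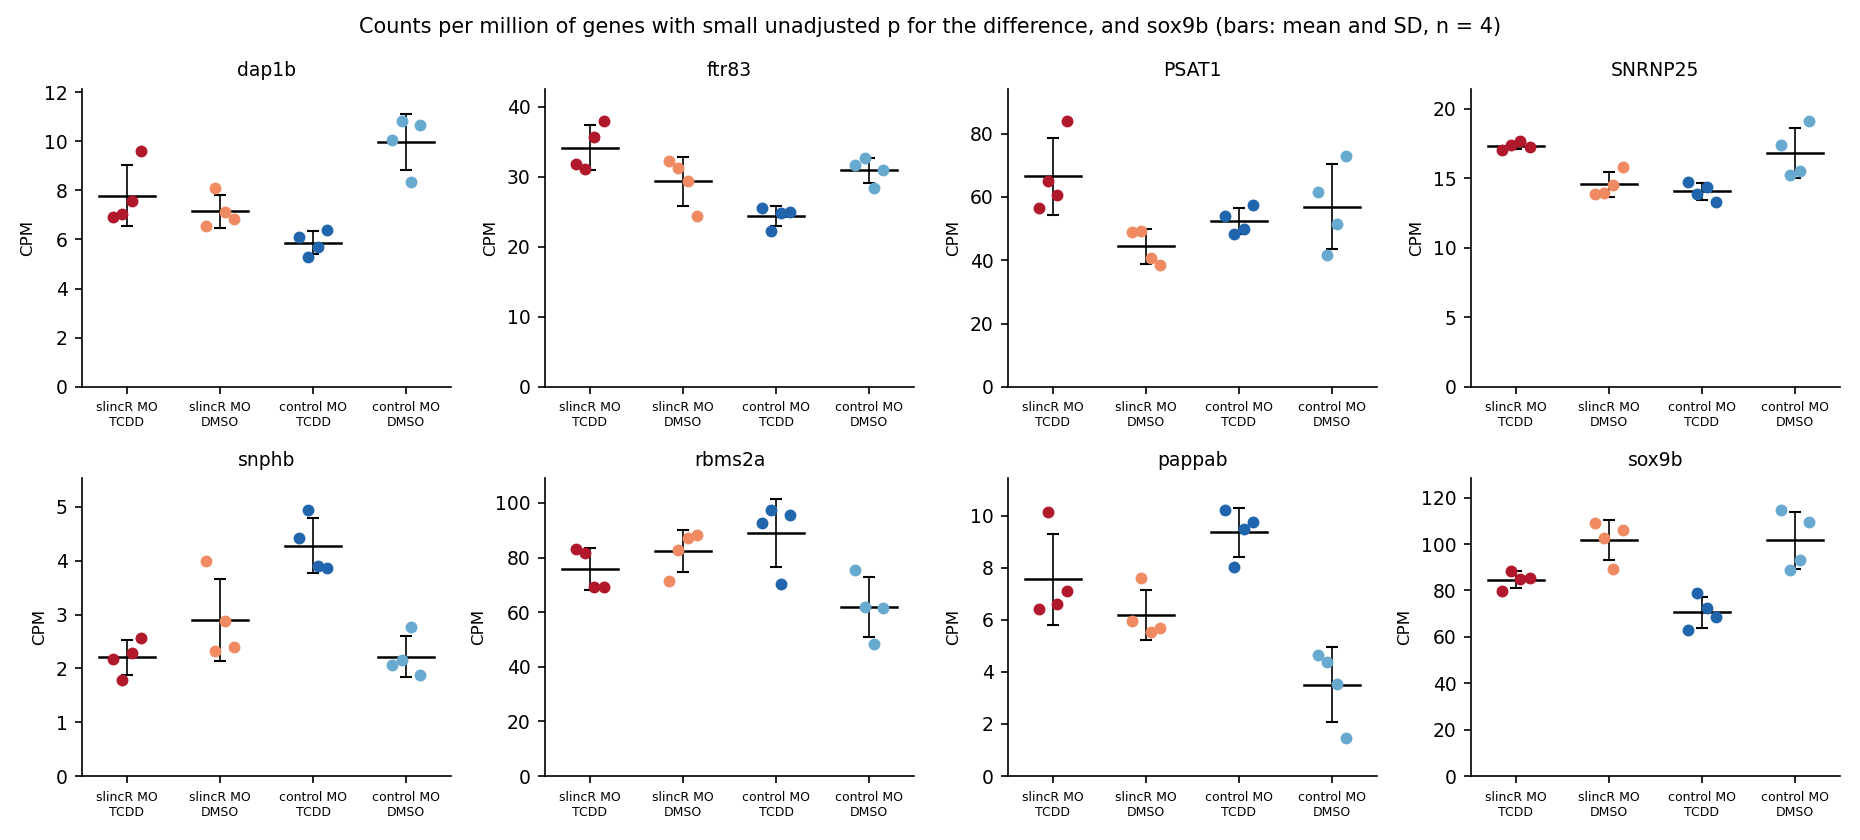
CPM in each of the 16 libraries for 8 genes, 7 from the ends of the ranking by unadjusted p, and sox9b, with slincR morphants left of control morphants and TCDD left of DMSO. Points are libraries, and the bar and whisker are the mean and SD of 4 libraries. SNRNP25 is higher with TCDD in slincR morphants (17.0 to 17.7 CPM) and lower with TCDD in control morphants (13.3 to 14.7 CPM), while sox9b is lower with TCDD in both.

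Gene lists of 32 pathways and tissues were described by their response differences, and 0 of their 817 tested genes passed the test. The list whose median lay farthest from that of all genes, among the 32 with all libraries, was that of the cytosolic ribosomal proteins, the protein part of the ribosome. Of 75 tested, 9 had a positive and 66 a negative response difference, with a median of −0.20, against 10117 positive and 10513 negative genes and a median of −0.0048 over all tested genes. Their median response was −0.26 in slincR morphants and −0.08 in control morphants. An unadjusted p under 0.05 was found for 6, all negative, namely rplp2, RPL29, RPL31, RPL12, RPS15 and RPS10. Over all tested genes 617 (2.99%) had such a p, 322 of them with a negative response difference. The list's mean log2 level, relative to each gene's mean, ran from 0.02 to 0.46 over control TCDD libraries. Its members thus moved together, and the 6 are not separate results. RPS10 gave 247, 254, 313 and 266 CPM in TCDD-treated slincR morphants, against 322, 322, 324 and 326 CPM in DMSO-treated ones. Control embryos gave 416, 331, 422 and 337 CPM with TCDD, against 364, 331, 389 and 395 CPM with DMSO. The slincR ranges of RPS10 did not overlap, the control ranges did, and the response difference was −0.29 ± 0.13. Every slincR library was below every control library of the same treatment. The slincR ranges of RPS15 did not overlap either, while those of rplp2, RPL29, RPL31 and RPL12 did. The list's median was −0.08 without control TCDD replicate 3, −0.11 without control DMSO replicate 1, −0.13 without slincR DMSO replicate 3 and −0.25 when the fit took the share of reads outside genes as a covariate. Control TCDD replicate 3 had the lowest such share of its group. Counts of near-identical ribosomal genes are uncertain, since the deposited table counts reads that align to several places apart from the genes.

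The nuclear-encoded subunits of the respiratory chain, which make ATP in mitochondria, leaned the same way. Of 60 tested, 19 had a positive and 41 a negative response difference, with a median of −0.10 and 0 past the test. The median was −0.0390 without slincR TCDD replicate 1, −0.0448 without slincR DMSO replicate 3, −0.0509 without slincR TCDD replicate 2 and −0.0588 without control TCDD replicate 3. It was −0.154 without slincR TCDD replicate 4 and −0.155 when the share of reads outside genes was a covariate. NDUFA2, a subunit of complex I, measured 3.20, 4.54, 4.28 and 4.16 CPM in TCDD-treated slincR morphants, against 5.48, 4.94, 5.10 and 4.62 CPM in DMSO-treated ones, and 6.18, 6.33, 7.23 and 6.21 CPM in TCDD-treated control morphants, against 6.14, 6.06, 6.18 and 4.66 CPM in DMSO-treated ones. Its slincR TCDD libraries were all below the slincR DMSO range, the control ranges overlapped, and the response difference was −0.48 ± 0.23, or −0.39 without the control DMSO library that stood apart. COX5A and NDUFB9 also had an unadjusted p under 0.05, at −0.40 ± 0.18 and −0.39 ± 0.19. Their slincR ranges overlapped, unlike those of NDUFA2. Such a p was found for 3 of the 60, all negative, against 2.99% of all tested genes. The list's mean log2 level, relative to each gene's mean, ran from −0.05 to 0.24 over control TCDD libraries. Its members thus moved together, and the 3 are not separate results.

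Complement genes, which encode plasma proteins of innate immunity made largely in the liver, had a positive median response difference. Of 23 tested, 14 were positive and 9 negative, down to −0.34, and 0 passed the test. Over all tested genes 10117 were positive and 10513 negative. The complement median was 0.15, and 0.0984 without slincR DMSO replicate 2. An unadjusted p under 0.05 was found for 3, all positive, against 2.99% of all tested genes. Only these 3 are given here. Complement factor c4b measured 52.3, 45.1, 48.7 and 50.1 CPM in TCDD-treated slincR morphants, against 39.1, 42.2, 46.2 and 48.6 CPM in DMSO-treated ones. Control morphants had 58.7, 65.1, 54.1 and 71.0 CPM with TCDD, against 77.5, 72.8, 72.0 and 74.4 CPM with DMSO. The slincR ranges overlapped, every control TCDD library was below the control DMSO range, slincR libraries were below control libraries under both treatments, and the response difference was 0.41 ± 0.13 (95% interval 0.14 to 0.68). Factor B, cfb, had the same pattern and a response difference of 0.41 ± 0.14 (95% interval 0.12 to 0.71), and c3b.2 had 0.42 ± 0.20. The 28 tested liver genes, 13 positive and 15 negative, had a median of −0.0085, which was −0.0389 without control DMSO replicate 4 and 0.0852 without control DMSO replicate 3.

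The 23 tested retina photoreceptor genes, 17 positive and 6 negative, had a median of 0.10. Over single libraries left out it ran from 0.04 without slincR TCDD replicate 4 to 0.28 without slincR DMSO replicate 3. Low counts limit this list. Its 2 members with the smallest unadjusted p, opn1sw2 and GRK1, had group means of at most 1.26 and 1.39 CPM. With a filter at a mean of 1 CPM in a group, 19 of its genes remained, with a median of 0.163. The medians of the 31 circadian clock genes and of the 23 neutrophil and macrophage genes were 0.09 each, with 20 and 14 positive. Both clock and immune medians changed by over 1.5 times with a single library. The clock median was 0.0489 without slincR TCDD replicate 4, 0.0573 without slincR DMSO replicate 1 and 0.0509 without control TCDD replicate 4. The immune median was 0.0562 without slincR TCDD replicate 1, 0.137 without control TCDD replicate 3, 0.0463 without control TCDD replicate 4 and 0.161 without control DMSO replicate 2. The remaining lists had medians between −0.11, for 10 fatty acid binding genes, and 0.09, for 5 exocrine pancreas genes, and 0 of their members passed the test. Both of these ends rested on single libraries. The fatty acid binding median was 0.0246 without slincR DMSO replicate 1, and the exocrine pancreas median was 0.0243 without control TCDD replicate 3.

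**Figure D5:**
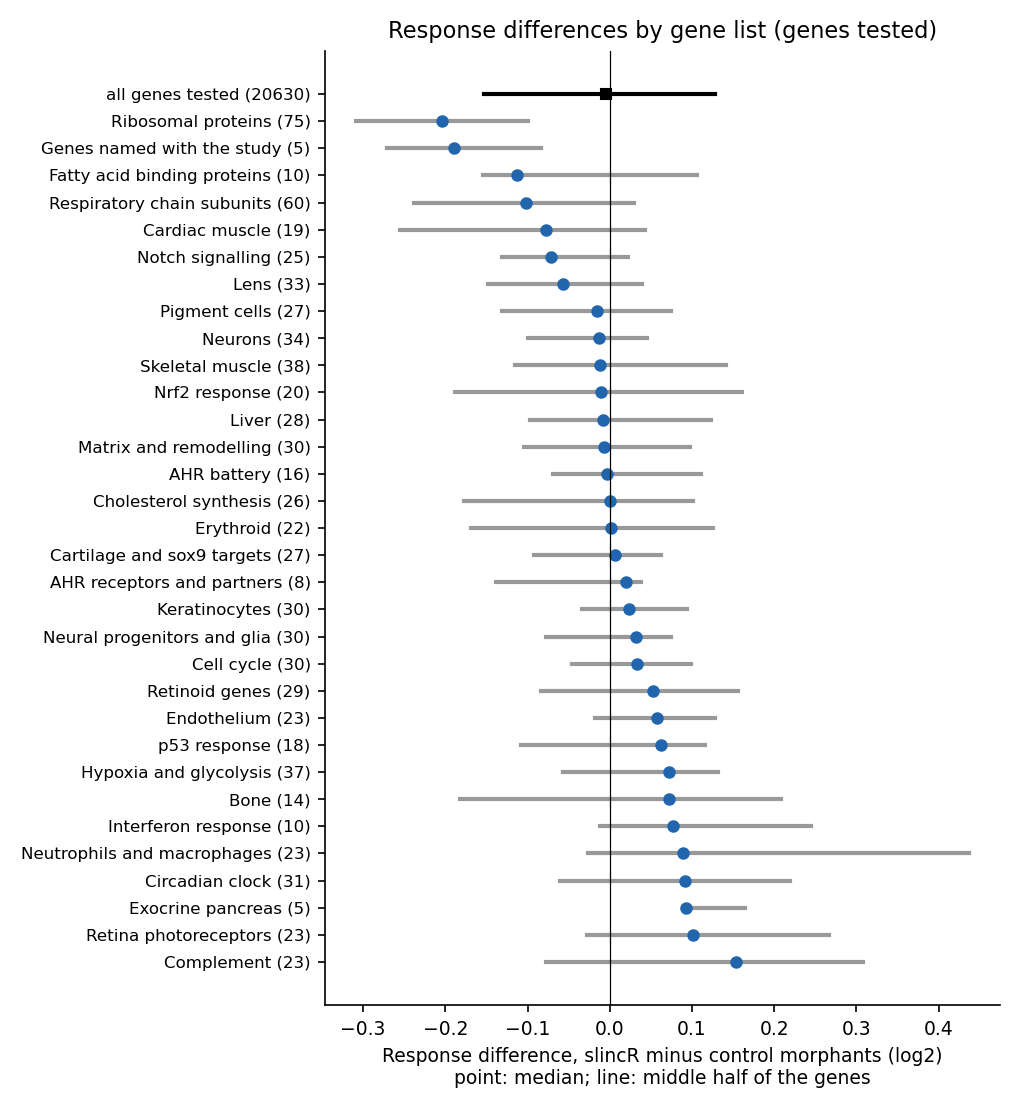
Median response difference (slincR minus control morphants, log2) of each gene list as a point, with a line between the quartiles of its genes and the number of genes tested in brackets. The ribosomal list has its median at −0.20 and both quartiles below 0, and the AHR battery has its median at −0.0035.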

How the data were processed

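Poly-A RNA was sequenced as paired 150 bp reads, per the labels' protocols. The authors deposited 1 table of raw counts per Ensembl gene, made with FastQC, TopHat, SAMtools and HTSeq on build GRCz10, per the submitters' processing notes. Tool versions, alignment settings and strand handling were not given in the sources used here. Reads of genes that overlap on opposite strands may therefore be counted for the wrong gene. Reads ambiguous between genes were a separate entry, 0.274% to 0.332% of a library, and were in no gene's count. Summary entries (reads in no gene, 12.8% to 16.1% of a library, and others) were removed before scaling and testing. The authors also deposited lists of genes with log2 fold changes per the file headers, for TCDD against DMSO in each morphant. In the authors' deposited tables the 80 slincR and 132 control genes differed from the fit used here by at most 0.00248 and 0.00266 on the log2 scale.

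Counts were scaled with edgeR's TMM factors, and genes were kept by filterByExpr with a minimum count of 10. A negative binomial quasi-likelihood model with 1 mean per group was fitted to all 16 libraries with edgeR 4.0.16 in R 4.3.3, with 12 residual degrees of freedom. The biological coefficient of variation was 14.0%. Each adjusted p is from this edgeR test, with Benjamini-Hochberg adjustment over all tested genes, and passed under 0.05. The standard error (SE) is the size of the log2 change divided by the square root of the F statistic. It is approximate, and that of a response difference need not match the SEs of the 2 responses. Among others, it was smaller than they imply for cyp1a, cyp1b1 and cyp1c1, and larger for fgf7, wfikkn1, ahrra, ahrrb and the lincRNA. CPM levels are counts scaled to an equal TMM library size, and are compared between libraries, never between genes. The script was tested on simulated data with known changes. DESeq2 1.42.0 and limma 3.58.1 (voom) were alternatives. At most 1.76% of tested genes had equal counts in any pair of libraries, so no library was a copy of another.

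The genes and lists were chosen with earlier results of these data known. Named genes were a fixed list of TCDD, sox9 and study genes, the 10 genes in each direction with the smallest unadjusted p for the response difference, the 8 in each direction with the largest average response, and 2 per list. The 10 and the 8 had to reach 1 CPM on average in some group and to have a gene symbol, not a clone number. Further genes (ahr2, foxq1b, cyb5a, nfe2l2b, strongly responding genes and list members with an unadjusted p under 0.05, and the oppositely separated genes) were chosen after their values were seen. Of 945 list symbols 852 matched an identifier, 297 of them by an upper-case name and 177 by a family name without the paralogue letter. A family name brought in every identifier under it, so some lists hold more identifiers than symbols and do not resolve paralogues. Symbols are printed as the name tables give them. Intervals are nominal 95% intervals built from the approximate SE above, and cover the spread between libraries in the fit.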

Additional observations from a re-analysis of the deposited data

Results flagged for a closer look

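Among the named genes and library measures examined, 360 groups of 4 libraries were checked for 1 library far from the other 3 by Dixon's criterion at 95%, and 20 (5.56%) had one. Chance gives about 1 in 20 groups where groups are independent. These groups share 16 libraries, and some genes were chosen after their values were seen, so the count cannot be held against that rate. The flags were not spread evenly, with 5 in slincR TCDD replicate 4 and 5 in control TCDD replicate 3. In slincR morphants in TCDD, replicate 4 was high for ahrra (11.2 CPM), tiparp (123 CPM), foxq1a (23.4 CPM), lyz (4.83 CPM) and ccl34b.1 (0.822 CPM), and replicate 3 was high for prl (2.67 CPM). In slincR morphants in DMSO, replicate 1 was high for foxq1a (5.54 CPM) and AMACR (2.98 CPM) and low for SMPD3 (39.1 CPM). Replicate 4 of that group was low for SOX9 (31.7 CPM), high for c3b.2 (12.01 CPM) and high in the share of reads in no gene (15.2%). In control morphants in TCDD, replicate 3 was low for prl (0.734 CPM) and btbd6a (41.6 CPM), high for casp3l (0.678 CPM) and NDUFA2 (7.23 CPM), and low in the share of reads in no gene (13.4%). In control morphants in DMSO, replicate 2 was high for ADAMTS3 (21.6 CPM), replicate 3 was low for btbd6a (36.9 CPM) and replicate 4 was low for NDUFA2 (4.66 CPM).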

How the results depend on the processing

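Over 25 alternatives (16 that left out a library, and 9 other settings) the count of genes with a response difference past the test was 0 each time, and 551 to 1053 genes had an unadjusted p under 0.05. The number of genes with an average response past the test ran from 296 to 534 without 1 library, and was 721 with DESeq2 (408 higher, 313 lower) and 717 with the covariate (351 higher, 366 lower). The median response difference in the direction of the TCDD response was −0.101 with the covariate and ran from −0.108 to −0.0167 without 1 library. Of 121 named genes, 14 had another sign under some setting and 0 were called under any. The response difference of cyp1b1 was −2.6e-05 with RLE size factors, −3.86e-04 with DESeq2 and −0.00228 with the covariate, that of wfikkn1 was −0.197 with limma-voom, and the response difference of prl was 0.113 with the covariate. Without 1 library the ranges were −0.0438 to 0.0641 for ahr2, −0.269 to 0.137 for lyz, −0.111 to 0.113 for cyp1b1, −0.357 to 0.168 for ponzr4, −0.0378 to 0.1 for ugt1b1, −0.213 to 0.382 for wfikkn1, −0.367 to 0.217 for fgf7, −0.439 to 0.0478 for prl, −0.0164 to 0.192 for tiparp, −0.383 to 0.985 for ccl34b.1, −0.128 to 0.0176 for cyp1c1, −0.175 to 0.0481 for foxq1a, −1.1 to 0.188 for casp3l and −0.197 to 0.0129 for FABP2. The cause of these changes was not tested. Replicate numbers gave no sign of pairing in the correlation of deviations from the group means. Over 24 same-numbered pairs it ran from −0.178 to 0.134, with 2 over 0.1. Over pairs with other numbers it ran from −0.206 to 0.191. Whether same-numbered pools shared a spawning cannot be told from these correlations. A fit with the replicate number as a block called 0 response differences and 397 average responses, and its signed median was −0.0491. Low counts in DMSO limit the fold changes of ahrra, ahrrb and the lincRNA, and few pools limit all intervals.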
